A study of Mus musculus with 8 samples.

Results

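Heterotrimeric G proteins carry the signal of a receptor across the cell membrane. An activated receptor makes the alpha subunit exchange GDP for GTP and separate from the paired beta and gamma subunits, and both parts then act on effectors such as adenylyl cyclases, phospholipase C beta and ion channels. The alpha subunit sets the class, and in the suprachiasmatic nucleus (SCN), the hypothalamic pacemaker of mammals, all main classes serve peptide and transmitter receptors. The subunits were chosen as a list of 10 gene symbols, Gnai1, Gnai2, Gnai3, Gnao1, Gnaq, Gna11, Gnas, Gnal, Gnb1 and Gnb4, and were read from the probe sets annotated to 1 symbol each. Of the 10, 9 had such a probe set, 1 apiece, and all 9 lay above the low-value filter and entered the test, among 12452 genes tested of 19938 with a probe set of their own. Gnas, which encodes the stimulatory Gs alpha subunit, shares its probe set with Gnasas1 in the platform annotation, so it was not analysed here.

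Levels were measured with whole-transcript microarrays on SCN tissue of C57BL/6J mice in 4 groups, which were Gpr176-/- (KO) at circadian time 18 (CT18, subjective night), KO at CT6 (subjective day), wild type (WT) at CT18 and WT at CT6. All mice had lived under 12 h of light and 12 h of dark before sampling in constant darkness. Each array held laser-dissected SCN pooled from 10 animals, and each group had 2 arrays, A and B, from separate pools. The labels used here name the genotype as Gpr176-/- and say no more of the allele, and age and sex are not given in them.

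The targeted gene, which encodes an orphan receptor that couples to the G protein Gz, was lower on each KO array than on each WT array, with a difference of -1.30 ± 0.0491 log2 over both times (standard error of the fit, limma adjusted p = 3.37e-06). Of 10 clock genes used to check the time labels, 8 fell and 2 rose at CT18 over both genotypes. The mean log2 level of SCN neuron markers (12 of 12 in the test) was 10.45 to 10.51 on CT18 arrays and 10.91 to 10.99 on CT6 arrays. Single markers could be low, such as Prok2 at 6.76 on WT CT18 B. Means over the arrays ran from 10.40 to 10.74 for astrocyte and from 9.96 to 10.33 for oligodendrocyte markers. The second principal component, with 18.1% of the variance, placed KO CT18 A (-8.85) and WT CT18 A (9.17) at its ends, and values without them are given below where they differ most.

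By time of day the beta subunit Gnb4 was called, also under all 16 alternative settings. The alpha subunit Gnal passed narrowly over both genotypes, and its call held in 5 of 16 alternatives. The other 7 subunits did not pass the test in any comparison. Over both genotypes 2 of 9 subunits fell and 0 rose at CT18, against 16.8% of all tested genes called (6.79% lower and 10.0% higher). Within a genotype 1 of 9 was called, Gnb4, in the KO (background 7.16%) and in the WT (6.94%). The median log2 difference, CT18 minus CT6, was -0.0036 for the 9 subunits and 0.01 for all tested genes. Between KO and WT 0 of 9 were called at CT18 (background 0.00803%), at CT6 (0.00803%) and over both times (0.0241%), and 0 of 9 in the test of whether the day-night difference depended on genotype (background 0%). At an unadjusted p under 0.05, Gnb4 was the 1 of 9 subunits counted at CT18 (12.5% of all tested genes), over both times (12.0%) and for the dependence on genotype (4.86%), and 0 of 9 were counted at CT6 (4.24%). In tissue samples such as these, fewer cells of a type and less RNA per cell cannot be told apart.

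**Figure D1:**
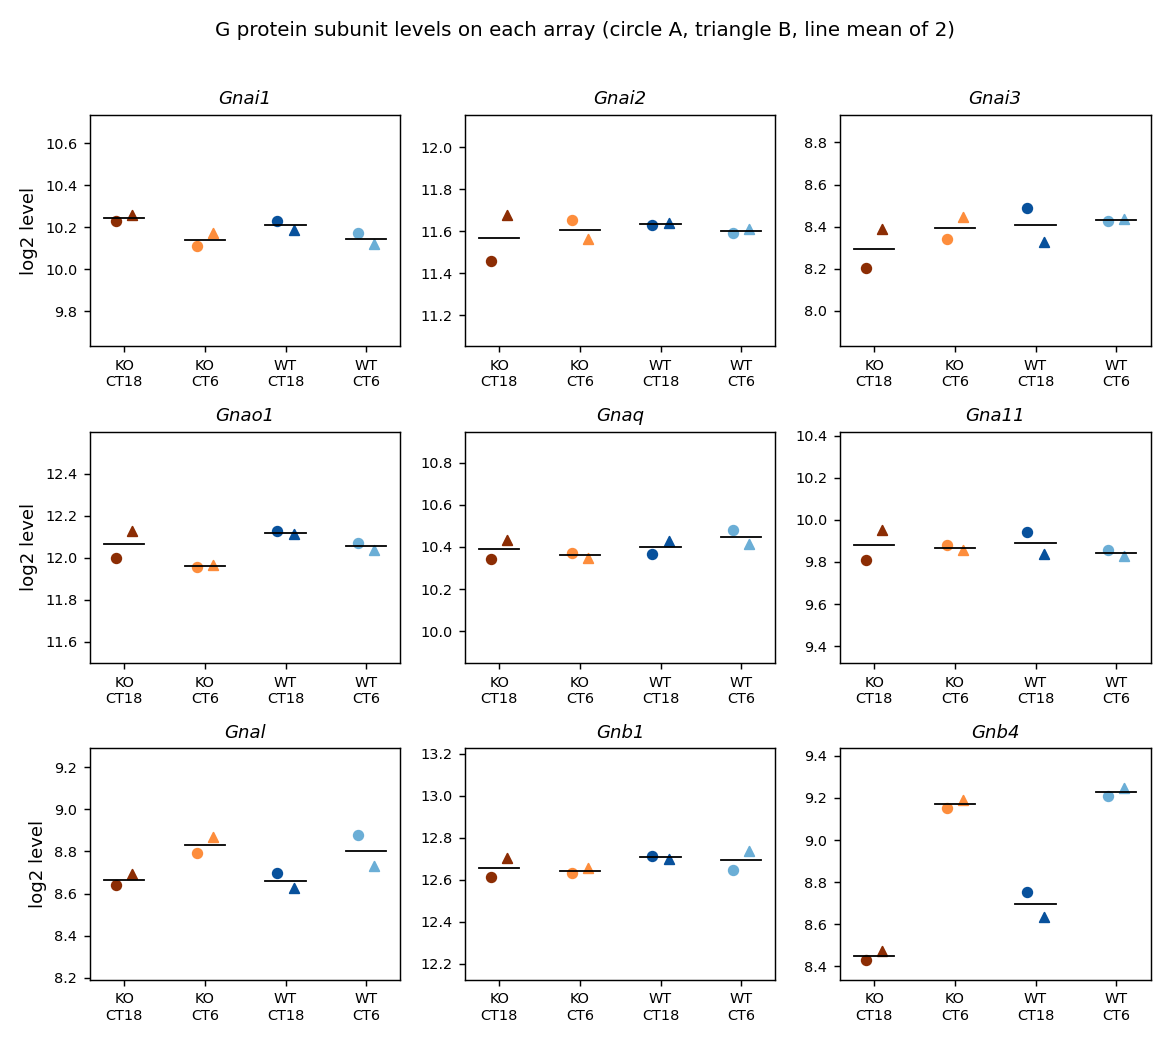
Log2 level (y axis, every panel spanning the same range) of 9 G protein subunits on each of 8 arrays, in 4 groups of 2 (x axis; circles are array A, triangles array B, lines the mean of both). Gnb4 lies below 8.8 on all CT18 arrays and above 9.1 on all CT6 arrays, and the other panels show smaller shifts.

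Gnb4 encodes a G protein beta subunit, which pairs with a gamma subunit and, once released, acts on potassium and calcium channels and other effectors. At CT18 its log2 level was 8.43 and 8.47 in the KO and 8.75 and 8.63 in the WT. At CT6 it was 9.15 and 9.19 in the KO and 9.21 and 9.25 in the WT. Every CT18 array thus lay below every CT6 array in both genotypes, and the 2 KO arrays at CT18 were the lowest of the 8. Gnb4 fell by 0.72 ± 0.0583 in the KO (limma adjusted p = 8.75e-05), to 0.607 times its CT6 level. In the WT it fell by 0.53 ± 0.0583 (adjusted p = 0.000596), to 0.692 times its CT6 level. Over both genotypes the difference was -0.63 ± 0.0412 (adjusted p = 9.44e-06), which ranked 67th of 12452 genes by p-value and 55th from the lowest by size. It was called under each of the 16 alternative settings, with differences of -0.65 to -0.60.

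A comparison of genotypes left Gnb4 short of the threshold. Its level was lower in the KO than in the WT on all arrays of the same time, by 0.24 ± 0.0583 at CT18 (unadjusted p = 0.00208, limma adjusted p = 0.319) and by 0.06 ± 0.0583 at CT6 (adjusted p = 0.975). At CT18 the arrays were 8.43 and 8.47 in the KO against 8.75 and 8.63 in the WT, a gap between groups larger than the gap within either group. By p-value this difference ranked 66th of all genes. The share of all tested genes whose KO and WT arrays of the same time lie apart was not counted. The day-night difference was larger in size in the KO than in the WT by 0.19 ± 0.0825 (unadjusted p = 0.0477, adjusted p = 0.944), with a 95% interval for KO minus WT of -0.37 to -0.0023. Across the alternatives the adjusted p of the CT18 comparison ran from 0.150 to 0.991 and that of the dependence on genotype from 0.484 to 1.00, so neither was called under any of them. Without WT CT18 A the CT18 difference was -0.18 and without KO CT18 A it was -0.22. Cell type markers also differed between genotypes at CT18 without a call, in either direction, with a median KO minus WT difference of -0.02 for all tested genes. Medians were -0.47 for 6 leptomeningeal, -0.16 for 5 astrocyte, -0.12 for 6 oligodendrocyte and -0.12 for 5 endothelial and mural markers. They were 0.04 for SCN neurons, 0.03 for microglia, 0.09 for ependyma and choroid plexus and 0.04 for striatal and olfactory markers. The 1 tested marker of other hypothalamic nuclei differed by 0.25. For the dependence on genotype the leptomeningeal, astrocyte, and endothelial and mural medians were -0.53, -0.19 and -0.22, against -0.01 for all tested genes. Those of oligodendrocytes and SCN neurons were 0.02 and 0.04, and those of microglia and of ependyma and choroid plexus 0.01 each. Striatal and olfactory markers had 0.03 and the marker of other hypothalamic nuclei -0.12. The mean log2 level of 7 leptomeningeal markers was 7.38 and 7.41 in the KO and 7.97 and 7.43 in the WT at CT18, against 7.95 and 7.56 in the KO and 7.53 and 7.84 in the WT at CT6. The part of these markers in the Gnb4 values was not tested.

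Gnb1, the other beta subunit of the list and a common partner of most alpha subunits, did not pass the test in any comparison. Its levels at CT18 were 12.61 and 12.71 in the KO and 12.72 and 12.70 in the WT. At CT6 they were 12.63 and 12.66 in the KO and 12.65 and 12.74 in the WT. The times overlapped, with a difference of 0.01 ± 0.0408 over both genotypes (limma adjusted p = 0.852) and a 95% interval of -0.08 to 0.11. The log2 difference between Gnb4 and Gnb1 within an array, averaged -4.11 ± 0.122 on CT18 arrays and -3.47 ± 0.0230 on CT6 arrays (SD, n = 4 each). The change was -0.64, given as a description, since Gnb4 alone already separated the times. These levels are of 2 probe sets and do not say which beta subunit is the more abundant.

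**Figure D2:**
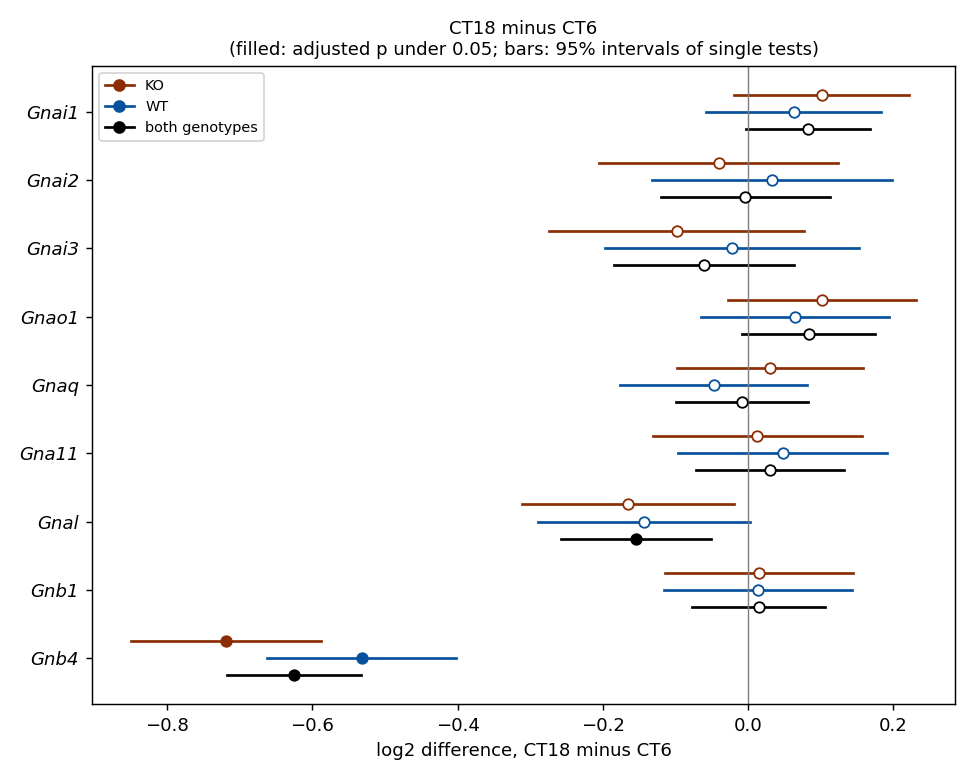
Log2 difference CT18 minus CT6 (x axis) of 9 subunits (y axis) in the KO, the WT and over both genotypes, with 95% intervals of single tests as bars and filled points for an adjusted p under 0.05. Gnb4 stands at -0.72, -0.53 and -0.63, Gnal at -0.17, -0.14 and -0.15, and the intervals of the other subunits over both genotypes include 0.

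Gnal encodes Golf, the stimulatory alpha subunit of olfactory neurons and of the striatum, which activates adenylyl cyclase as Gs does. Its log2 levels at CT18 were 8.64 and 8.69 in the KO and 8.70 and 8.62 in the WT. At CT6 they were 8.79 and 8.87 in the KO and 8.88 and 8.73 in the WT. All 4 CT18 arrays lay below all 4 CT6 arrays, and the gap between them was narrow (8.70 against 8.73). The difference over both genotypes was -0.15 ± 0.0461 (limma adjusted p = 0.0480), or a level 10.1% lower, with a 95% interval of -0.26 to -0.05. Neither genotype passed on its own, at -0.17 ± 0.0652 in the KO (adjusted p = 0.170) and -0.14 ± 0.0652 in the WT (adjusted p = 0.240). The call rested on the setting: it held in 5 of 16 alternatives, with adjusted p from 0.0242 to 0.142, and among the 8 fits that each left out 1 array only in the one without WT CT6 B. KO minus WT was 0.02 ± 0.0461 over both times (adjusted p = 0.896).

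Some markers of other cell types and of neighbouring tissue also differed by time. Of 4 tested striatal and olfactory markers 0 were called by time. Over both genotypes their differences ran from -0.13 for Rgs9 (limma adjusted p = 0.0711) to 0.05 for Penk. The mean log2 level of the 4 was 9.49 and 9.53 in the KO and 9.51 and 9.51 in the WT at CT18. At CT6 it was 9.55 and 9.58 in the KO and 9.54 and 9.56 in the WT. Of 4 tested markers of ependyma and choroid plexus 3 fell at CT18, against 6.79% of all tested genes. They were Rarres2 (-0.23), Ccdc153 (-0.21) and Folr1 (-0.21). The other, Foxj1, was higher at CT18 by 0.12 without a call. The mean log2 level of 5 measured markers of this list was 8.36 and 8.33 in the KO and 8.22 and 8.24 in the WT at CT18, against 8.41 and 8.43 in the KO and 8.31 and 8.41 in the WT at CT6. For microglia, oligodendrocytes, endothelial and mural cells, leptomeninges and other hypothalamic nuclei 0 markers were called by time. Of 12 SCN neuron markers 1 rose and 5 fell, against 10.0% and 6.79% of all tested genes. Lhx1 rose (0.38), the falls included Prok2 (-2.67) and Rgs16 (-1.40), and the median of the 12 was -0.10. Rgs16 is also among the regulators counted below. Among 5 astrocyte markers Fabp7 fell (-0.72) and Slc1a3 rose (0.16). The part of these markers in the values of Gnb4 and Gnal was not tested.

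The Gi class inhibits adenylyl cyclase and releases beta and gamma subunits to potassium channels. Gnai1 had log2 levels at CT18 of 10.23 and 10.26 in the KO and 10.23 and 10.19 in the WT. At CT6 the levels were 10.11 and 10.17 in the KO and 10.17 and 10.12 in the WT. All CT18 arrays were above all CT6 arrays, yet the difference of 0.08 ± 0.0380 over both genotypes did not pass (limma adjusted p = 0.178; 95% interval -0.0026 to 0.17). With Gnb4 and Gnal, Gnai1 made 3 of 9 subunits whose arrays did not overlap between times, against 21.0% of all tested genes. No subunit separated the 4 KO from the 4 WT arrays (0 of 9, against 4.22% of tested genes).

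Gnai2, a Gi alpha subunit of broad expression, had the widest spread between arrays of one group. Its levels were 11.46 and 11.68 in the KO and 11.63 and 11.64 in the WT at CT18. At CT6 they were 11.65 and 11.56 in the KO and 11.59 and 11.61 in the WT. KO CT18 A was the lowest of all arrays and KO CT18 B the highest, so the groups overlapped. The difference by time was -0.0036 ± 0.0520 (limma adjusted p = 0.974) and that by genotype -0.03 ± 0.0520 (adjusted p = 0.823), and without KO CT18 A they were 0.05 and 0.02.

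Gnai3, the third Gi alpha subunit, had levels of 8.20 and 8.39 in the KO and 8.49 and 8.33 in the WT at CT18. At CT6 it had 8.34 and 8.44 in the KO and 8.42 and 8.43 in the WT. The array KO CT18 A was again the lowest, and the ranges of the groups overlapped. Over both genotypes CT18 minus CT6 was -0.06 ± 0.0552 (limma adjusted p = 0.520), and over both times KO minus WT was -0.07 ± 0.0552 (adjusted p = 0.592). Single arrays moved both values: with 1 left out, they ran from -0.11 to -0.01 by time and from -0.12 to -0.03 by genotype, the ends nearest 0 both without KO CT18 A. At CT18, KO minus WT was -0.11 with all arrays, -0.03 without WT CT18 A and -0.02 without KO CT18 A.

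Of the 9 tested subunits 6 had a promoter window in the RefSeq (GRCm38.p6) table used here, and Gnb4, Gnal and Gnai2 were not searched. These were windows of 300 bases, 250 before and 50 after the start of the gene, searched on both strands for letters tied to clock or cAMP control. The E-box of the clock activators, CACGTG, occurred in the windows of Gnai1, from base -118 relative to the start, and Gnai3, from base -219, and in 7.15% of all 32851 windows. The core of the cAMP response element, TGACG, occurred 1 time in the window of Gnai3, 40 bases into the gene, and 2 times in that of Gnb1, and in 20.8% of all windows. The core of the ROR element, AGGTCA, occurred in that of Gnb1, overlapping 1 of the TGACG matches by 1 base, and in 16.3% of all. The full cAMP element TGACGTCA (1.79% of windows) and the D-box TTATGTAA (0.938%) occurred in none of the 6, and Gnao1, Gnaq and Gna11 held none of these letters. The 250 bases before the start are shown for the 3 windows with a match with the matches in capitals, so that they can be read beside the levels of Gnai1, Gnai3 and Gnb1, which were not called in any comparison. The windows lie at chr5:18360414-18360663 on the minus strand, chr3:108146153-108146402 on the minus strand and chr4:155491111-155491360 on the plus strand.
Gnai1: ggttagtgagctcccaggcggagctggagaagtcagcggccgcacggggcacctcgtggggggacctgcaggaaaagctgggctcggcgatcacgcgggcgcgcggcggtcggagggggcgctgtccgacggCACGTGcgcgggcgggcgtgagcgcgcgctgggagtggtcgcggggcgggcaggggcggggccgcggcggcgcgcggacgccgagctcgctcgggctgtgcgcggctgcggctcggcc
Gnai3: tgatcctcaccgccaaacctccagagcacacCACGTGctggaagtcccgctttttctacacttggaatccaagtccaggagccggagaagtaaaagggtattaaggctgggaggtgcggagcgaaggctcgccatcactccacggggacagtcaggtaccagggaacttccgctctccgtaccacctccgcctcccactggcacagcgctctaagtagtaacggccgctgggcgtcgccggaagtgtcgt
Gnb1: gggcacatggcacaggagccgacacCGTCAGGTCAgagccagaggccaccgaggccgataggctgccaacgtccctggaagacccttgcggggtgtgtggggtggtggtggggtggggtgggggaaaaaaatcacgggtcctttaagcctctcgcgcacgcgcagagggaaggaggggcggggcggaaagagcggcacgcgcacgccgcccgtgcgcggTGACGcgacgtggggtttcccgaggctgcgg

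Gnao1 encodes Go, the main alpha subunit of neurons, which acts largely through its beta and gamma partners. Its log2 levels were 12.00 and 12.13 in the KO and 12.13 and 12.11 in the WT at CT18. At CT6 they were 11.95 and 11.97 in the KO and 12.07 and 12.04 in the WT. Both KO arrays lay below both WT arrays at CT6, and at CT18 the groups overlapped. The share of all tested genes separated in this way at CT6 was not counted. KO minus WT was -0.09 ± 0.0578 at CT6 (limma adjusted p = 0.975), -0.06 ± 0.0578 at CT18 (adjusted p = 0.685) and -0.07 ± 0.0409 over both times (adjusted p = 0.484; 95% interval -0.17 to 0.02). The difference by time over both genotypes was 0.08 ± 0.0409 (adjusted p = 0.202; 95% interval -0.01 to 0.18).

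The Gq class, Gnaq and Gna11, activates phospholipase C beta and so raises inositol trisphosphate and calcium. Gnaq had levels of 10.34 and 10.44 in the KO and 10.37 and 10.43 in the WT at CT18. At CT6 the levels were 10.37 and 10.35 in the KO and 10.48 and 10.41 in the WT. Both KO arrays thus lay below both WT arrays, a separation whose share over all tested genes was not counted. This CT6 difference, KO minus WT, was -0.09 ± 0.0574 (limma adjusted p = 0.975). By genotype over both times the difference was -0.05 ± 0.0406 (limma adjusted p = 0.651), and by time it was -0.01 ± 0.0406 (adjusted p = 0.920; 95% interval -0.10 to 0.08). Gna11 had levels of 9.81 and 9.95 in the KO and 9.94 and 9.84 in the WT at CT18. At CT6 it stood at 9.88 and 9.85 in the KO and 9.86 and 9.83 in the WT. For Gna11 all 4 groups overlapped, and its differences were 0.03 ± 0.0455 by time (adjusted p = 0.717) and 0.01 ± 0.0455 by genotype (adjusted p = 0.961).

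**Figure D3:**
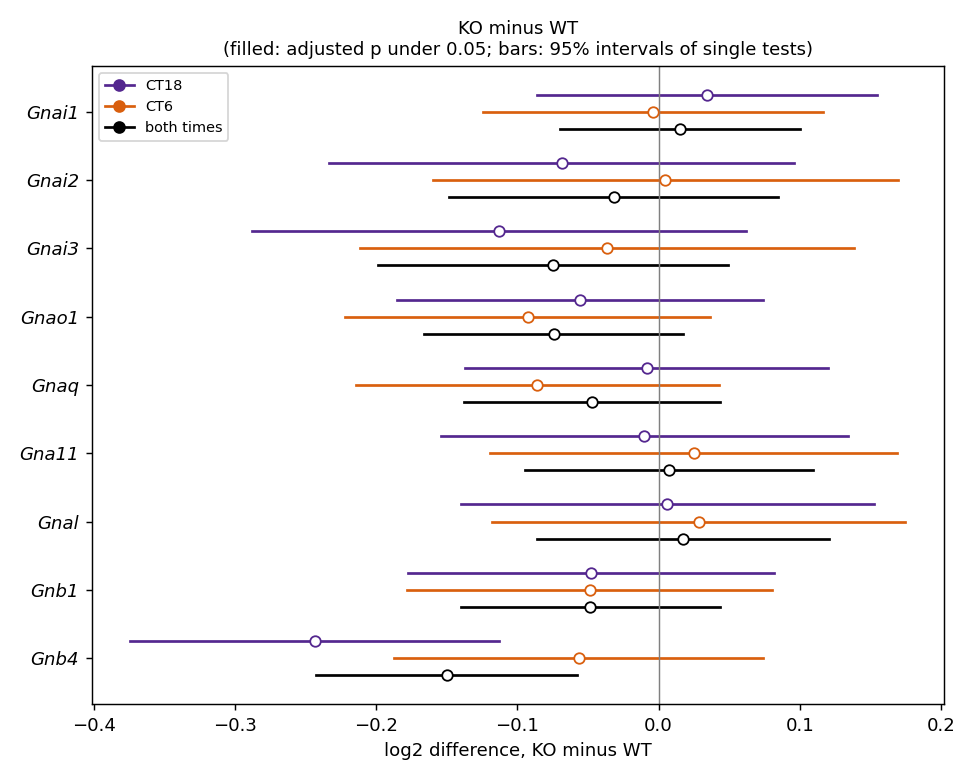
Log2 difference KO minus WT (x axis) of 9 subunits (y axis) at CT18, at CT6 and over both times, with 95% intervals of single tests as bars; filled points would mark an adjusted p under 0.05, and no subunit has one. Gnb4 at CT18 stands at -0.24, and all other values lie between -0.15 and 0.03.

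Many of the lowest values came from 1 array. KO CT18 A was the lowest of the 8 arrays for 6 of 9 subunits, against 20.7% of all tested genes for which it was the lowest. WT CT18 B was the lowest for 1 subunit and KO CT6 A for 2, and each of the other arrays for 0. Without KO CT18 A the KO minus WT difference at CT18 was 0.04 for Gnai2, 0.01 for Gnao1 and 0.06 for Gna11, against -0.07, -0.06 and -0.01 with it. Without WT CT18 A the value for Gna11 was 0.04, a move smaller than its standard error. Within the KO, Gnb4 was 0.04 lower on array A than on array B at CT18, so its level there did not rest on that array.

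Gnb4 and Gnal each shared their course over the 8 arrays with other genes. By Pearson correlation over these arrays, which share 1 normalization and the large split by time, the genes most like Gnb4 were Arrdc3, which encodes an alpha-arrestin (r = 0.994), Txndc16, a thioredoxin domain protein (r = 0.994), and Map3k19, a protein kinase (r = 0.992). Their differences at CT18 over both genotypes were -0.40 ± 0.0363, -0.45 ± 0.0448 and -1.08 ± 0.0534. In all, 408 of 11711 genes searched had r above 0.9 with Gnb4. Those most like Gnal were Lyrm1 (r = 0.981), Sugp1, a splicing factor (r = 0.978), and Denr, a factor of translation re-initiation (r = 0.977), with 70 genes above 0.9. The 3 differed at CT18 by -0.24 ± 0.0586, -0.22 ± 0.0471 and -0.14 ± 0.0417.

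**Figure D4:**
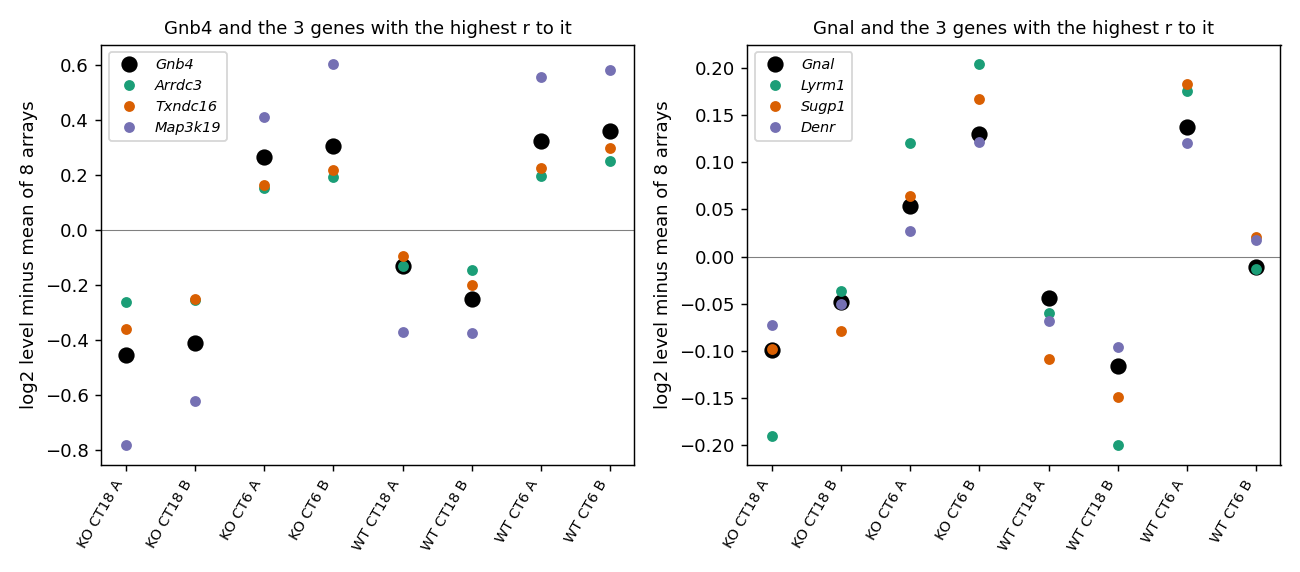
Log2 level minus the gene's mean over 8 arrays (y axis) on each array (x axis), for Gnb4 (left, black) and Gnal (right, black) with the 3 genes of highest Pearson r to each. The Gnb4 panel splits by time on all arrays, with the KO CT18 arrays lowest, and in the Gnal panel all 4 CT18 values of Gnal lie below its 4 CT6 values.

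A list of 25 other genes held subunits and the subunit-like Gnb1l and Gnb2l1, and 14 were tested, Gnb1l among them. Of the 14, 3 (21.4%) were called by time over both genotypes (2 higher, 1 lower), against 16.8% of all tested genes. Their median difference was 0.04, against 0.01 for all tested genes. Gng4, a gamma subunit, had log2 levels of 10.43 and 10.42 in the KO and 10.34 and 10.35 in the WT at CT18, against 10.60 and 10.57 in the KO and 10.59 and 10.66 in the WT at CT6. It fell by 0.22 ± 0.0367 over both genotypes (limma adjusted p = 0.00350). In the WT it fell by 0.28 ± 0.0518 (adjusted p = 0.0113), a call lost without WT CT6 B, CT18 A or CT18 B (highest adjusted p 0.0849), and in the KO the difference was -0.15 ± 0.0518 (adjusted p = 0.113). Gnb5, an atypical beta subunit that pairs with RGS proteins of the R7 group, rose by 0.18 ± 0.0467 (adjusted p = 0.0299). Gna13, another alpha subunit, rose by 0.16 ± 0.0480 (adjusted p = 0.0477). With 1 array left out at a time, Gnb5 kept its call in 1 of 8 fits and Gna13 in 2 of 8, and the list held 1 call in place of 3 without WT CT6 A, WT CT18 A, WT CT18 B, KO CT6 A or KO CT18 B. Gnaz, the Gz alpha subunit to which Gpr176 couples, differed by 0.13 ± 0.0496 by time (adjusted p = 0.108) and by 0.04 ± 0.0496 between KO and WT (adjusted p = 0.784). Between genotypes 0 of the 14 were called.

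Receptors, regulators and effectors around the subunits were counted in the same fit, over both genotypes. Of 30 tested receptors 9 rose and 5 fell at CT18. They were led by Avpr1a, the V1a vasopressin receptor (1.29), Calcr, the calcitonin receptor (-0.75), Vipr2, the VIP receptor (0.62), and Mtnr1a, a melatonin receptor (0.61). The 9 include the targeted gene Gpr176. Its probe set rose by 0.44 ± 0.0694 in the KO (limma adjusted p = 0.00507) and by 0.46 ± 0.0694 in the WT (adjusted p = 0.00436). Of 23 tested direct regulators 8 rose and 4 fell, led by the GTPase-activating proteins Rgs16 (-1.40), Rgs2 (0.43), Rgs20 (-0.38) and Rgs7 (-0.28). Of 21 tested effectors 6 rose and 1 fell, led by the adenylyl cyclase Adcy1 (0.38), the potassium channel subunits Kcnj5 (-0.29) and Kcnj9 (0.34), and Adcy5 (0.19), and without WT CT18 A 4 effectors were called in place of 7. The median differences were -0.01 for receptors, 0.06 for regulators and 0.09 for effectors, against 0.01 for all tested genes, of which 16.8% were called. Between KO and WT the 1 call in these lists was Gpr176 itself, at CT18, at CT6 and over both times.

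**Figure D5:**
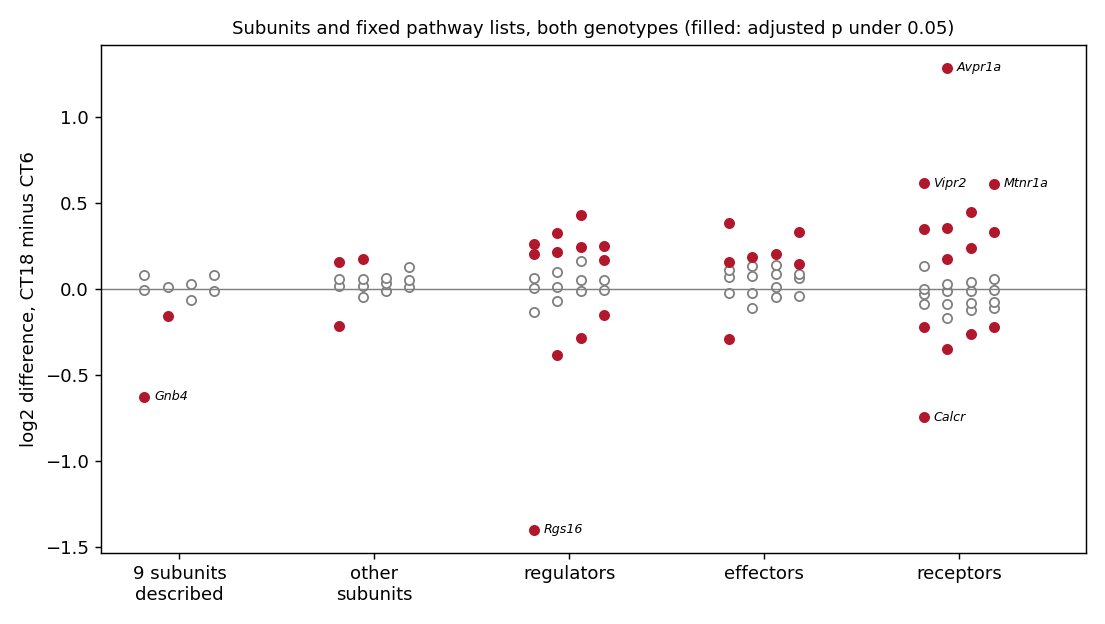
Log2 difference CT18 minus CT6 over both genotypes (y axis) of each tested gene of the 9 subunits and of 4 other lists (x axis); filled points passed an adjusted p under 0.05, and genes beyond 0.5 are named. Gnb4 at -0.63 is the 1 subunit beyond 0.5, and Rgs16 at -1.40 and Avpr1a at 1.29 are the ends of the plot.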

How the data were processed

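The authors deposited 1 table of log2 values for 28853 probe sets on 8 arrays. The background correction, summary and normalization behind it are not given in the sources used here, and per the labels' protocols RNA was column-purified, amplified with a whole-transcript kit and biotin-labelled. Lower quartiles differed by up to 0.139 between arrays, above the limit of 0.1, so the values were quantile normalized with limma 3.58.1 under R 4.3.3. Probe sets were named from the platform annotation (21789 with 1 symbol), the brightest per gene was kept, and genes averaging less than the 40th percentile over all probe sets (6.82) were left out.

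The 8 arrays entered 1 limma fit of group means (4 residual and 5.58 prior degrees of freedom), and 7 contrasts were taken. Calls were made at a Benjamini-Hochberg adjusted p under 0.05 over 12452 genes. Values after ± are standard errors unless an SD is named, and 95% intervals are of single tests. The number of arrays limits the precision. The subunits, lists and rules were chosen with earlier results of these data known. All 9 subunits are described on every array, with the 3 genes of highest Pearson r to each called subunit and up to 4 called genes per list by p-value. Alternatives were the deposited and median-centred values, no and a stricter filter (60th percentile), the mean of a gene's probe sets, a trended robust prior, array weights, a replicate block and leaving out each array. A turned sign of an uncalled value was counted as turned where the value moved by at least its standard error.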

Additional observations from a re-analysis of the deposited data

How the results depend on the processing

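Of 1008 recomputed subunit differences (63 differences, 16 alternatives), 986 kept their side of the threshold and their direction, or turned sign by less than their standard error. The calls of Gnb4 by time in the KO, in the WT and over both genotypes held under all 16, and 0 subunits were called by genotype or for its dependence on time under any. The count of subunits called by time over both genotypes was 2, and it was 1, with Gnal lost, for deposited values, median centring, no filter and the replicate block, and between 1 and 2 when 1 array was left out. Under the replicate block Gnal had an adjusted p of 0.0642, and the cause of the losses was not tested. The letters A and B pair the pools by name, and whether pools of the same letter share more than the name was not tested. The A minus B differences of 2 groups correlated over genes between -0.22 and 0.26. The values that turned were all of uncalled differences. Gnai1 by genotype over both times was -0.0278 with median centring. With 1 array left out, Gnai2 ran from -0.149 to 0.0682 by time in the KO, -0.0576 to 0.0504 by time over both, -0.177 to 0.0403 by genotype at CT18, -0.0859 to 0.0225 over both times and -0.182 to 0.0356 for the dependence. Gnai3 ran from -0.102 to 0.0591 by time in the WT, Gnal from -0.0456 to 0.102 by genotype at CT6, Gnao1 from -0.115 to 0.00867 and Gna11 from -0.0816 to 0.0609 by genotype at CT18, and Gna11 from -0.0584 to 0.0841 by time in the KO. A fit without 1 array leaves a group with a lone array, assumed to vary like the others. Over all genes, the 891 calls by time in the KO were 590 with median centring and, without KO CT6 A, CT6 B, CT18 A or CT18 B, 438, 511, 382 and 390. The 864 in the WT were 394, 367, 315 and 492 without the WT arrays in the same order, and the 2096 over both genotypes were 1378 without KO CT18 B. The 3 genes called by genotype over both times were 1 to 9 under the alternatives, and the 1 at each time 1 to 3 at CT18 and 1 to 2 at CT6.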
